A study of Rana omeimontis with 12 samples.

Results

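The tail of Rana omeimontis tadpoles was compared after treatment with 3,5,3'-triiodothyronine (T3, the active thyroid hormone) and after vehicle. The members were chosen by expression alone: a unigene, that is, a transcript cluster of the authors' de novo assembly taken as 1 gene, entered if it had at least 1 FPKM (fragments mapped to a transcript, scaled to its length and to the library's mapped fragments) in any 3 of the 6 tail libraries. This rule kept 18429 of the 56172 unigenes of the series, and 14213 of them carried an informative protein annotation. Just inside the rule were 2091 unigenes that reached 1 FPKM in exactly 3 libraries, with a median of their mean level of 1.14 FPKM, and just outside were 2157 that reached it in exactly 2, with a median of 0.8 FPKM. T3 tails came from tadpoles of Gosner stages 30 to 31 kept for 3 days in water with 10 nM T3, and the labels call them metamorphic. Control tails came from tadpoles of the same stages kept for the same time with dimethylsulfoxide, the vehicle, and the labels call them pro-metamorphic. Each group had 3 libraries of poly(A) RNA, food was given to both, and the liver of the same treatments was sequenced as well. The authors report that T3 reduced food intake and body weight. Lower food intake thus went with T3 in these tails, and its part in the results was not tested. The labels do not say whether a library came from 1 tadpole or from several, so p-values cover the spread among libraries, which may be technical. The treatment imitates the onset of metamorphic climax in young tadpoles and is not climax itself.

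Metamorphosis of frogs is driven by thyroid hormone, which binds nuclear receptors that switch target genes from repression to activation. The tail is a larval organ of skin, striated muscle, notochord, fin mesenchyme, nerve cord and vessels, and it is resorbed at climax, when its matrix is digested, its muscle and notochord cells die and phagocytes clear the remains. Larval skin carries keratins of its own, and the change to adult skin brings adult keratins and a cornified layer. Gene roles are given as known from frogs or other vertebrates, and names are the annotations of the best protein match in other species.

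Of the 18429 unigenes 3540 rose in T3 tails (19.2%) and 1148 fell (6.23%) at an adjusted p below 0.05, which makes 25.4% called in either direction. A positive log2 fold change, on the log2(FPKM + 1) scale, means a higher level in T3 tails, and this scale understates changes of genes at low FPKM. Fold changes are given ± their standard error from limma, and mean levels ± SD over the 3 libraries of a group. Over all tested unigenes the median log2 fold change was 0.31 as deposited, 0.48 with libraries set to equal sums, 0.01 with median-ratio scaling and -0.00448 after quantile normalization, so each change is to be read against 0.31. The share of calls that rose was 75.5% as deposited and fell to 50.1% with median-ratio scaling and 50.6% with quantile normalization. Under the values as deposited and all of these scalings, hence in 4 ways, 2422 unigenes rose (13.1%) and 802 fell (4.35%), and such members are called stable in what follows. Counts of rises and falls in the lists below are to be read against 19.2% and 6.23%, and stable counts against 13.1% and 4.35%. Where groups are said not to overlap, this describes single named genes, many of them picked for a large called change. Non-overlap was not counted over all unigenes and is no further support for a call. Changes were large for some: 3434 called unigenes differed by at least 1 on the log2 scale, and 765 by at least 2, of which 573 rose and 192 fell. Summed FPKM was 773936 to 829630 in T3 tails and 880361 to 989765 in control tails, and 18226 to 19459 unigenes reached 1 FPKM in T3 tails, against 16095 to 18599 in control tails. The read depth behind these values is unknown. With 1 library left out the number of calls lay between 2561 and 5804, with 2561 without T3 tail 2 and 2899 without T3 tail 1. Hepatocyte markers held at most 0.00702% of a tail library, against up to 11.05% of a liver library, and exocrine pancreas markers at most 0.00838%, against up to 5.49%.

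**Figure D1:**
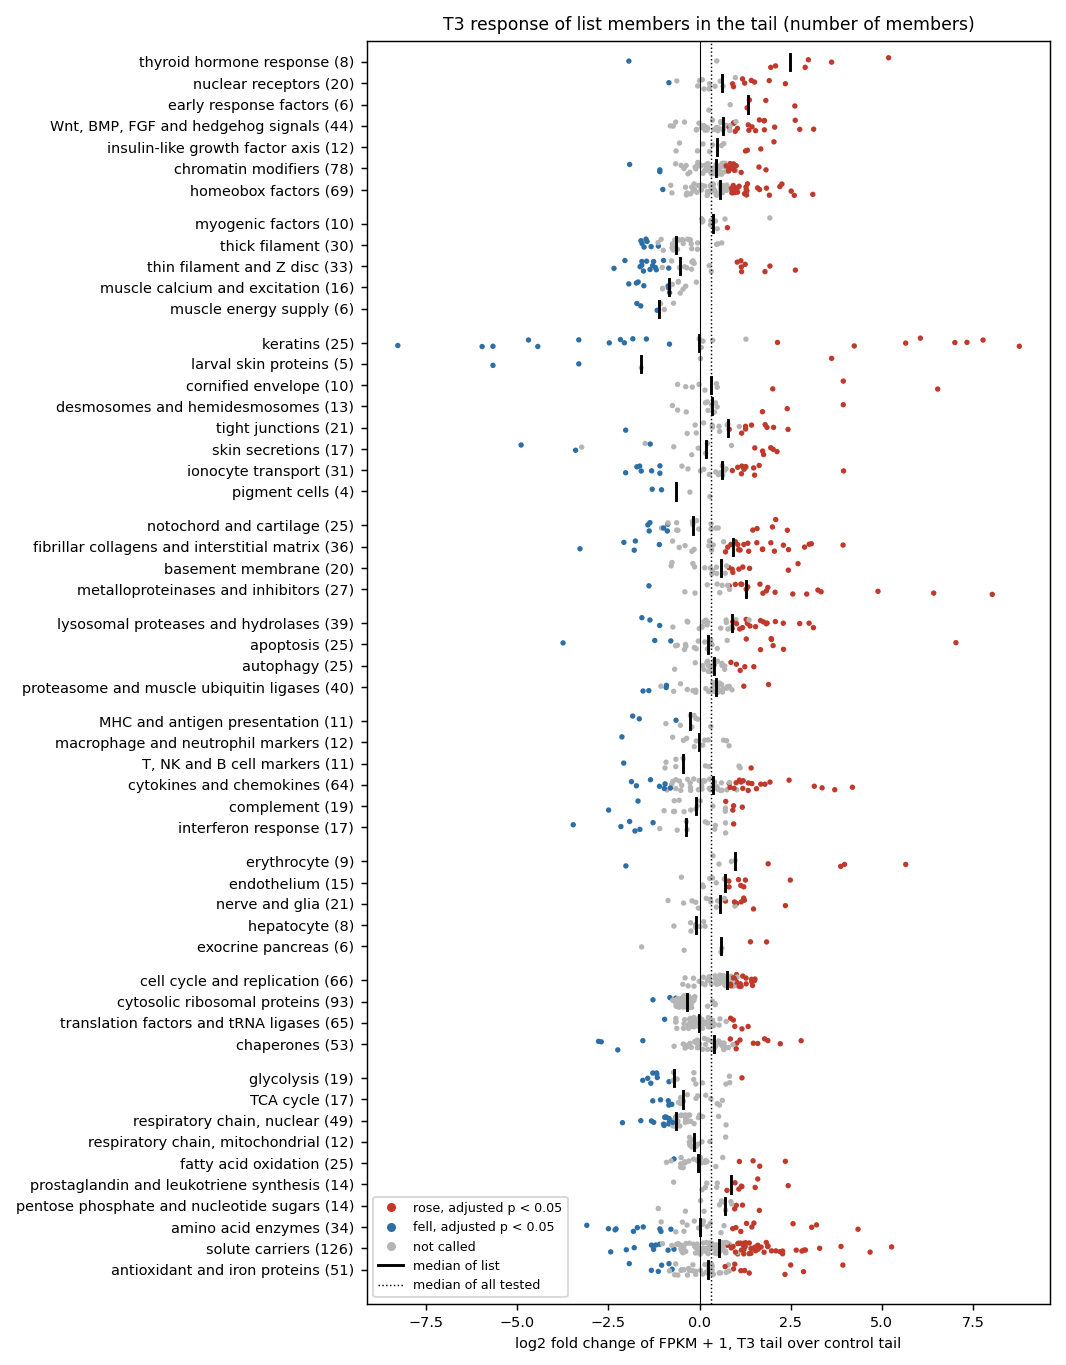
Log2 fold change of FPKM + 1, T3 tail over control tail, for the members of 53 gene lists (1 point for each distinct annotation, number of members in brackets, red for rose, blue for fell, grey for not called). The black bar is the median of a list and the dotted line the median of all tested unigenes (0.31); keratins spread from -8.27 to 8.77, metalloproteinases lie mostly to the right and respiratory chain subunits to the left.

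The largest rise and the largest fall among the members of all lists were both keratins. Keratins, the intermediate filament proteins of epithelia, moved in both directions: of 25 annotated members 8 rose, all 8 of them stable, and 12 fell, 11 of them stable, with a list median of -0.01. Keratin, type II cytoskeletal 5 (TRINITY_DN91866_c0_g1), a keratin of basal epidermis, had 309, 1027 and 1383 FPKM in T3 tails, against 0.33, 1.59 and 0.55 FPKM in control tails (log2 fold change 8.77 ± 0.49, adjusted p = 1.47e-06). Adult keratin RAK (TRINITY_DN80532_c0_g1), a bullfrog keratin of adult skin, had 87.5, 252 and 282 FPKM in T3 tails, against 0.22, 0.17 and 0.06 FPKM in control tails (log2 fold change 7.33 ± 0.40, adjusted p = 1.31e-06). T3 tail 1 was the lowest of its group for both genes, and every T3 tail was above every control tail. Keratin, type I cytoskeletal 12 (TRINITY_DN93373_c6_g4) had 1279, 1310.1 and 1377 FPKM in T3 tails, against 6.36, 5.86 and 3.39 FPKM in control tails (log2 fold change 7.77 ± 0.26, adjusted p = 9.46e-08), so that its level was alike in all T3 tails. Keratin, type II cytoskeletal 1-like averaged 385 ± 143 FPKM in T3 tails and 1.97 ± 1.03 FPKM in control tails (SD, n = 3 each), and the other 4 risers were toe pad keratin 4, keratin 75 of type II and a pair annotated as keratin 5. Keratin 5 protein 2 was among the falls.

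The keratins that fell had high levels in control tails. Larval type I keratin (TRINITY_DN119778_c8_g1) had 59.6, 68.9 and 60.1 FPKM in T3 tails, against 2652, 5000.2 and 2535 FPKM in control tails (log2 fold change -5.66 ± 0.28, adjusted p = 6.87e-07). Of 5 other tested unigenes with this annotation 5 fell. Keratin 14, type I (TRINITY_DN92925_c4_g1), had 3.19, 1.5 and 2.01 FPKM in T3 tails, against 459.8, 1913 and 1054 FPKM in control tails (log2 fold change -8.27 ± 0.44, adjusted p = 1.2e-06). Larva-specific keratin RLK, a bullfrog keratin of tadpole skin, averaged 195 ± 32.1 FPKM in T3 tails and 2066 ± 995 FPKM in control tails. Keratin 2-like averaged 9.98 ± 2.48 FPKM in T3 tails and 769 ± 464 FPKM in control tails. Inner-ear cytokeratin, a bullfrog keratin, averaged 48 ± 3.36 FPKM in T3 tails and 1192 ± 743 FPKM in control tails (log2 fold change -4.43 ± 0.36, adjusted p = 1.79e-05), while the 1 other tested unigene of that annotation rose. In each of these genes the highest level was in control tail 2 and the groups did not overlap. All keratin unigenes together held 0.566%, 0.814% and 0.896% of the summed FPKM of T3 tails, against 1.00%, 2.05% and 1.12% of control tails. No T3 share reached a control share, and the exact permutation p of 0.10 is the smallest that 3 against 3 libraries can give. In bulk tissue a smaller number of cells of a type and less RNA per cell cannot be told apart, here and in the groups that follow.

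**Figure D2:**
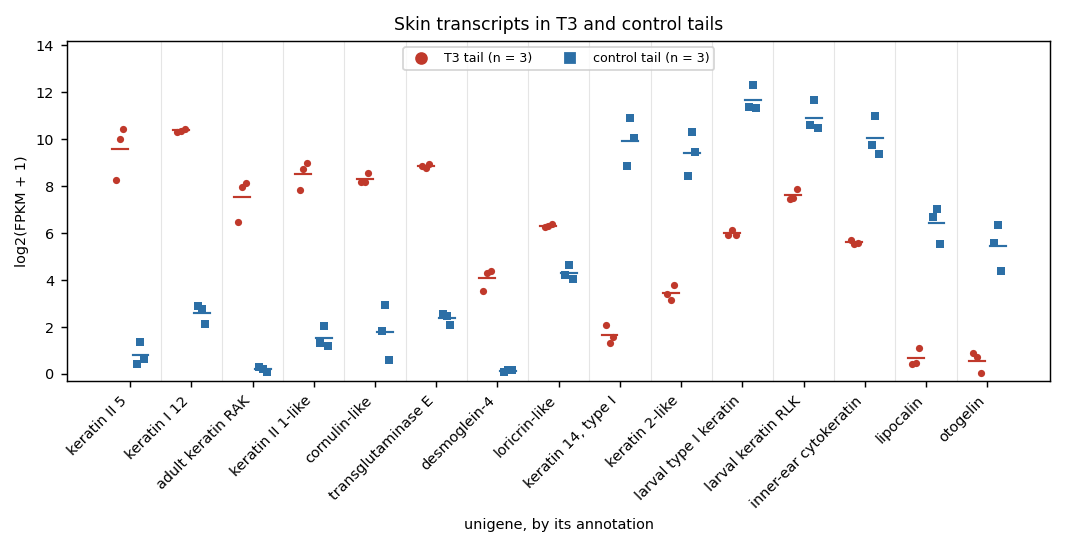
Log2(FPKM + 1) of 15 skin transcripts in 3 T3 tails (red circles) and 3 control tails (blue squares), with the group mean as a line. The 8 genes on the left are higher in every T3 tail, from keratin II 5 (309 to 1383 FPKM in T3 tails, 0.33 to 1.59 in control tails) to loricrin-like, and the 7 on the right are lower in every T3 tail.

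Of 10 proteins of the cornified envelope, the crosslinked protein shell of dead outer skin cells, 3 rose, all 3 stable, and none fell as deposited. The list median was 0.31, the same as that of all unigenes. With median-ratio scaling, with quantile normalization or without control tail 3, 1 member fell as well. Cornulin-like (TRINITY_DN88699_c0_g1), a member of the fused S100 proteins of cornifying cells, had 290, 289 and 379.9 FPKM in T3 tails, against 2.55, 6.58 and 0.52 FPKM in control tails (log2 fold change 6.53 ± 0.47, adjusted p = 7.48e-06). Loricrin-like, a main shell protein, averaged 78.9 ± 4.29 FPKM in T3 tails and 19.2 ± 4.34 FPKM in control tails (log2 fold change 2.01). Transglutaminase E, annotated as protein-glutamine gamma-glutamyltransferase E (TRINITY_DN117381_c0_g1), crosslinks the shell and was outside this list. It had 459, 434 and 491 FPKM in T3 tails, against 4.83, 4.58 and 3.29 FPKM in control tails (log2 fold change 6.48 ± 0.24, adjusted p = 1.07e-07). The groups did not overlap in any of these 3 genes, and 4 of 4 other tested unigenes annotated as this transglutaminase rose.

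Desmosomes, the rivets between epithelial cells, gave 3 rises, all stable, among 13 members (23.1%, against 19.2% of all unigenes). The list median was 0.33, but with median-ratio scaling 3 members fell as well. Of these cadherins and plaque proteins, desmoglein-4 averaged 16.4 ± 4.95 FPKM in T3 tails and 0.1 ± 0.0346 FPKM in control tails. Desmocollin 3 averaged 10.7 ± 1.06 FPKM in T3 tails and 2.58 ± 0.688 FPKM in control tails. The plaque protein plakophilin-1 averaged 18.9 ± 6.08 FPKM in T3 tails and 2.78 ± 1.13 FPKM in control tails (log2 fold change 2.40 ± 0.32, adjusted p = 0.000516). Tight junctions, which seal the skin against water, had 9 rises among 21 members, 6 of them stable, and a median of 0.78. The rises were 42.9% of the list, against 19.2% of all unigenes, and numbered 5 without T3 tail 2. Claudin 4 was the most abundant of those described, with 292, 356 and 271 FPKM in T3 tails, against 124, 143 and 32.8 FPKM in control tails (log2 fold change 1.85 ± 0.46, adjusted p = 0.0153), and lost its call without T3 tail 2 (adjusted p = 0.0595). Claudin-6, with 4.63 ± 1.11 FPKM in T3 tails and 0.0367 ± 0.0635 FPKM in control tails (log2 fold change 2.43), and junctional adhesion molecule C, with 27.8 ± 2.45 FPKM in T3 tails and 6.13 ± 1.54 FPKM in control tails (log2 fold change 2.03), rose as well. Claudin 8, gene 2, was the 1 member that fell, with 0.17 ± 0.115 FPKM in T3 tails and 4.32 ± 2.95 FPKM in control tails (log2 fold change -2.03 ± 0.39, adjusted p = 0.00414), and 2 members fell without control tail 3.

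Skin secretions changed in both directions. Of 17 members 6 rose and 3 fell, all 9 stable, with a median of 0.17, and without control tail 1 the falls numbered 5. Among antimicrobial peptides of frog skin glands, cathelicidin-RC2 preproprotein averaged 84.5 ± 24.3 FPKM in T3 tails and 21.7 ± 8.05 FPKM in control tails (log2 fold change 1.95 ± 0.33, adjusted p = 0.00236). Cathelicidin-AL averaged 8.46 ± 2.73 FPKM in T3 tails and 22.7 ± 3.87 FPKM in control tails (log2 fold change -1.35 ± 0.28, adjusted p = 0.00619), so that one rose and the other fell. Mucins, the glycoproteins of mucus, also moved both ways. Mucin-2-like averaged 237 ± 23.1 FPKM in T3 tails and 65.1 ± 40 FPKM in control tails (log2 fold change 2.02 ± 0.38, adjusted p = 0.0039), although of 3 other unigenes so annotated 1 rose and 2 fell. Mucin-4-like averaged 2.62 ± 0.246 FPKM in T3 tails and 45.9 ± 36.1 FPKM in control tails (log2 fold change -3.40 ± 0.47, adjusted p = 0.000652), and of 5 others 4 fell. Otogelin (TRINITY_DN89992_c0_g1), a mucin-related protein known from the gel over inner ear cells in mammals, had 0.84, 0.63 and 0.02 FPKM in T3 tails, against 46.5, 79.5 and 19.9 FPKM in control tails (log2 fold change -4.89 ± 0.44, adjusted p = 3.7e-05). Lipocalin (TRINITY_DN119096_c1_g2), of a family of secreted carriers of small lipophilic molecules, was outside this list. It had 0.34, 0.38 and 1.16 FPKM in T3 tails, against 102, 129 and 46 FPKM in control tails (log2 fold change -5.75 ± 0.38, adjusted p = 4.28e-06). Otogelin and lipocalin were near 0 in every T3 tail. The summed share of all skin secretion transcripts was 0.0809 to 0.0948% in T3 tails and 0.0680 to 0.139% in control tails, and these ranges overlapped (exact permutation p = 0.50).

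Transport genes of ionocytes, the skin cells that take up salt from fresh water, gave 10 rises (8 stable) and 7 falls (5 stable) among 31 members, with a median of 0.62. These were 32.3% and 22.6% of the list, against 19.2% and 6.23% of all unigenes. The rises numbered 6 without T3 tail 1, 5 without T3 tail 2 and 6 without control tail 2, and the falls 4 without T3 tail 1 or T3 tail 3. The gamma subunit of the epithelial sodium channel ENaC (TRINITY_DN101109_c1_g2), a channel of adult frog skin, had 24.1, 18.4 and 44.1 FPKM in T3 tails, against 2.96, 0.31 and 0.15 FPKM in control tails (log2 fold change 3.95 ± 0.47, adjusted p = 0.000255). Ammonium transporter Rh type B-A, an ammonia channel of gills and skin in fishes, averaged 8.23 ± 0.78 FPKM in T3 tails and 31.1 ± 17.6 FPKM in control tails (log2 fold change -1.64 ± 0.38, adjusted p = 0.0105). The sodium channel thus rose and the ammonium transporter fell in the same tails. Of 4 pigment cell members 2 fell, both stable. Tyrosinase-related protein 1, a melanin enzyme, had 18.8, 16.4 and 17.4 FPKM in T3 tails, against 46.1, 43.6 and 43.9 FPKM in control tails (log2 fold change -1.30 ± 0.23, adjusted p = 0.00259). Melanoma antigen recognized by T-cells 1, a melanosome protein, averaged 5.54 ± 0.739 FPKM in T3 tails and 12.5 ± 1.68 FPKM in control tails. The call of the melanosome protein was lost without T3 tail 3 (adjusted p = 0.0546), which left 1 fall in the list.

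Skeletal muscle transcripts took a smaller share of T3 tails than of control tails. The 231 marker unigenes took 10.9%, 9.39% and 13.8% of the summed FPKM of T3 tails, against 14.4%, 20.01% and 27.6% of control tails (11.4 ± 2.26% and 20.7 ± 6.63%, SD, n = 3 each, exact permutation p = 0.10). The groups did not overlap, but the difference of -9.27 percentage points shrank to -5.80 without control tail 3. Among 30 thick filament members, the myosins and their partners, 8 fell (26.7%, against 6.23% of all unigenes), 6 of them stable. The list median was -0.64. The falls numbered 4 without T3 tail 1 or T3 tail 2, 5 without control tail 3 and 15 without control tail 1. Myosin-4 (TRINITY_DN122033_c6_g2), a fast myosin heavy chain and the most abundant of the list, had 10025, 8616 and 13144 FPKM in T3 tails, against 12006, 17202 and 22548 FPKM in control tails, which did not pass (log2 fold change -0.68 ± 0.25, adjusted p = 0.0664). T3 tail 3 was above control tail 1 for this gene, so the groups overlapped. It passed without control tail 1 (adjusted p = 0.0295), and of 3 other unigenes so annotated 2 rose and 1 fell. Myosin heavy chain IIa had 545, 469 and 790.5 FPKM in T3 tails, against 1239, 1642 and 2357 FPKM in control tails (log2 fold change -1.52 ± 0.28, adjusted p = 0.00364) with no overlap.

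**Figure D3:**
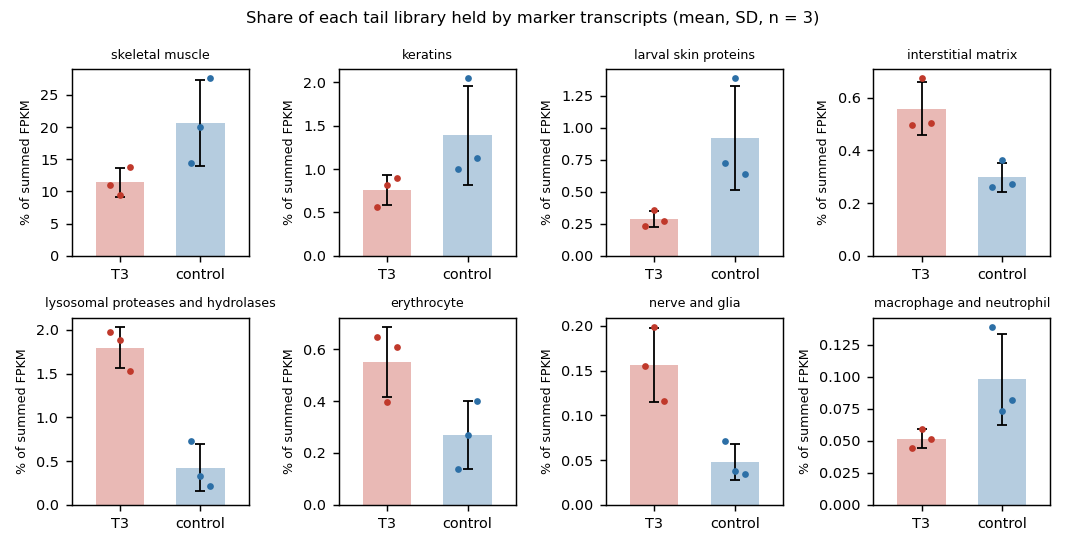
Percent of the summed FPKM of each tail library held by 8 marker lists in T3 tails (red) and control tails (blue); bars are means with SD, points the 3 libraries. Muscle (11.4 against 20.7%), keratin, larval skin and macrophage shares are lower in all T3 tails (the macrophage ranges overlap without lysozyme G-like 2), matrix, lysosomal and nerve shares are higher, and erythrocyte shares overlap. In T3 tails most of the nerve share is peripheral myelin protein 2. The keratin and larval skin lists both hold larval type I keratin, so their shares are not independent.

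Thin filament and Z disc proteins, to which the thick filaments bind, moved both ways: 14 of 33 members fell, 10 of them stable, 8 rose, 6 of them stable, and the median was -0.55. The falls were 42.4% of the list and the rises 24.2%, against 6.23% and 19.2% of all unigenes. The falls numbered 8 without T3 tail 1 and 7 without T3 tail 2, and the rises 5 without T3 tail 1. Troponin C of slow skeletal and cardiac muscle (TRINITY_DN93576_c4_g2), a calcium sensor, had 158, 130.3 and 223 FPKM in T3 tails, against 633, 768 and 1251 FPKM in control tails (log2 fold change -2.34 ± 0.30, adjusted p = 0.000405). Desmin, gene 1, the intermediate filament of muscle, had 459, 407 and 472 FPKM in T3 tails, against 1717, 1342 and 2714 FPKM in control tails (log2 fold change -2.05 ± 0.26, adjusted p = 0.000429). Troponin T averaged 5329 ± 808 FPKM in T3 tails and 12945 ± 5229 FPKM in control tails (log2 fold change -1.21 ± 0.27, adjusted p = 0.00958). Control tail 3 was the highest for all 3 genes. The members that rose were not sarcomere proteins of striated fibres alone. Leiomodin-1, an actin nucleator of smooth muscle, averaged 11 ± 2.86 FPKM in T3 tails and 0.913 ± 0.172 FPKM in control tails (log2 fold change 2.63 ± 0.26, adjusted p = 7.19e-05). Tropomyosin 4 b, of a mainly non-muscle tropomyosin, averaged 214 ± 15.8 FPKM in T3 tails and 61.2 ± 6.83 FPKM in control tails (log2 fold change 1.79). PDZ and LIM domain protein 7, an actin-bound scaffold, averaged 21.1 ± 0.496 FPKM in T3 tails and 4.81 ± 0.623 FPKM in control tails (log2 fold change 1.93). The other risers were PDZ and LIM domain members 1, 3 and 5 and leiomodins 2 and 3. A further unigene annotated as PDZ and LIM domain 7 (enigma) was among the falls.

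Other muscle genes fell with the filaments. Of 16 calcium handling and excitation members 7 fell (43.75%, against 6.23% of all unigenes), 4 of them stable, with a median of -0.83. The number was 3 without T3 tail 3 and 4 without T3 tail 1, T3 tail 2, control tail 2 or control tail 3. The epsilon subunit of the acetylcholine receptor, which receives the nerve signal, had 7.08, 8.61 and 9.12 FPKM in T3 tails, against 22.1, 32.5 and 36.2 FPKM in control tails (log2 fold change -1.73 ± 0.27, adjusted p = 0.00128). The alpha-1 and beta subunits fell as well, and the alpha-1 call was lost without T3 tail 3 (adjusted p = 0.0555) or control tail 1 (adjusted p = 0.0657). In energy supply 3 of 6 members fell, 2 of them stable, and 1 fell without T3 tail 1, T3 tail 2 or control tail 3. Muscle creatine kinase (TRINITY_DN112156_c3_g2), which buffers ATP, had 11437, 9558 and 16099 FPKM in T3 tails, against 19462, 27787 and 36459 FPKM in control tails (log2 fold change -1.16 ± 0.26, adjusted p = 0.00855), but after quantile normalization the change was -0.39 (adjusted p = 0.156). SMYD1, a methyltransferase needed for building myofibrils in zebrafish, averaged 11.7 ± 3.77 FPKM in T3 tails and 45.7 ± 6.16 FPKM in control tails (log2 fold change -1.92 ± 0.29, adjusted p = 0.00115). The cytosolic chaperone HSP90 alpha, class A member 1, gene 2, averaged 30.2 ± 19.7 FPKM in T3 tails and 180.4 ± 44.4 FPKM in control tails (log2 fold change -2.77 ± 0.47, adjusted p = 0.00231). Of 10 myogenic regulators 1 was called, MEF2C with a rise, which was not stable and was lost without any T3 tail or control tail 2. Myogenic factor 5, a determination factor of muscle precursors, had 89.8, 95.9 and 12.9 FPKM in T3 tails, against 23.1, 14.4 and 4.99 FPKM in control tails (log2 fold change 1.93 ± 0.70, adjusted p = 0.0669). T3 tail 3 lay between the control tails, and without it the log2 fold change was 2.85 (adjusted p = 0.00348). The part of the muscle share in these results was not tested.

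Notochord and cartilage members were split, with 5 stable rises and 6 falls (3 stable) among 25 and a median of -0.18. The rises were 20% of the list, near the 19.2% of all unigenes, and the falls 24%, against 6.23%. The falls numbered 2 without T3 tail 1 or T3 tail 3 and 3 without T3 tail 2 or control tail 2. With equal library sums 5 rose and 3 fell, and with median-ratio scaling 5 and 8. Matrilin-4-like, an adaptor protein of matrix networks, had 195, 291 and 228 FPKM in T3 tails, against 50.3, 47.9 and 67.2 FPKM in control tails (log2 fold change 2.09 ± 0.25, adjusted p = 0.000284). Matrilin 1, a cartilage matrix protein, had 2.33, 4.06 and 7.85 FPKM in T3 tails and was listed at 0 in every control tail (log2 fold change 2.41 ± 0.34, adjusted p = 0.000808). Hyaluronan and proteoglycan link protein 1, which ties aggrecan to hyaluronan, averaged 8.77 ± 3.11 FPKM in T3 tails and 1.39 ± 0.341 FPKM in control tails (log2 fold change 2.00), and aggrecan core protein-like and collagen XXVII also rose. Epiphycan, a small proteoglycan of cartilage, averaged 20.1 ± 2.6 FPKM in T3 tails and 54.9 ± 17.8 FPKM in control tails (log2 fold change -1.36 ± 0.29, adjusted p = 0.00668). Collagen IX alpha 2 and alpha 3, matrilin-3 and cartilage intermediate layer proteins 1 and 2 fell. Brachyury, gene 2, the transcription factor of the notochord, had 3.78, 3.77 and 4.42 FPKM in T3 tails, against 6.02, 7.19 and 6.92 FPKM in control tails, which did not overlap yet did not pass (log2 fold change -0.63 ± 0.24, adjusted p = 0.0731). With median-ratio scaling it did pass (adjusted p = 0.0175). The summed share of the list was 0.0978 ± 0.0134% in T3 tails and 0.0840 ± 0.0247% in control tails (exact permutation p = 0.40).

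Interstitial matrix proteins, made mainly by fibroblasts, rose more often than unigenes at large: 21 of 36 members rose, against 19.2% of all unigenes, 15 of them stable, while 5 fell, 4 of them stable, and the median was 0.92. Biglycan (TRINITY_DN90687_c1_g1), a small proteoglycan that binds collagen, had 477, 449 and 469 FPKM in T3 tails, against 57.2, 55.9 and 57.8 FPKM in control tails (log2 fold change 3.01 ± 0.21, adjusted p = 5.8e-06). The chain alpha-1 of collagen XII (TRINITY_DN115832_c1_g3), which coats collagen fibrils, had 229, 358 and 261 FPKM in T3 tails, against 19.3, 15.2 and 17.4 FPKM in control tails (log2 fold change 3.93 ± 0.25, adjusted p = 3.46e-06). The groups were far apart for both, and for biglycan the libraries of a group lay close together. Fibulin-7, a secreted adhesion protein, averaged 31.3 ± 10.4 FPKM in T3 tails and 2.72 ± 0.416 FPKM in control tails (log2 fold change 3.06 ± 0.30, adjusted p = 6.56e-05). Fibronectin 1, fibrillins 1, 2 and 3 and collagen VI chains rose too. Tenascin-X-like, a glycoprotein that spaces collagen fibrils, averaged 7.32 ± 3.8 FPKM in T3 tails and 84.9 ± 51.6 FPKM in control tails (log2 fold change -3.28 ± 0.45, adjusted p = 0.000658), and 3 of 3 others of its annotation fell. Tropoelastin 2a, the precursor of elastic fibres, averaged 112 ± 10.6 FPKM in T3 tails and 392.1 ± 117 FPKM in control tails (log2 fold change -1.76). Collagen alpha-1(I) chain-like averaged 21.9 ± 2.98 FPKM in T3 tails and 95.6 ± 15.9 FPKM in control tails (log2 fold change -2.07 ± 0.24, adjusted p = 0.000239). The remaining falls were tenascin-N and an EGF-containing fibulin-like protein. The share of the list was 0.497 to 0.674% in T3 tails and 0.262 to 0.362% in control tails, with no overlap (exact permutation p = 0.10).

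Of 20 basement membrane members 8 rose, 5 of them stable, with a median of 0.59, and 4 rose without T3 tail 2 or control tail 2 and 5 without T3 tail 3. The subunits of laminin 332, the laminin that anchors basal keratinocytes, all rose. Laminin gamma-2 averaged 59.3 ± 21.9 FPKM in T3 tails and 8.05 ± 2.27 FPKM in control tails (log2 fold change 2.70 ± 0.33, adjusted p = 0.000321). Laminin beta-3 averaged 36.6 ± 11.4 FPKM in T3 tails and 5.78 ± 1.22 FPKM in control tails (log2 fold change 2.43 ± 0.30, adjusted p = 0.000307). Laminin alpha-3 averaged 43.6 ± 3.78 FPKM in T3 tails and 16.9 ± 6.24 FPKM in control tails (log2 fold change 1.37 ± 0.28, adjusted p = 0.00602). All 3 had separate groups.

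Matrix metalloproteinases digest collagen and other matrix, and their list had a higher share of rises than those of lysosomes, apoptosis, autophagy and the proteasome. Of 27 members, relatives with a disintegrin domain and inhibitors included, 18 rose, 16 of them stable, 1 fell and the median was 1.28. MMP13, or collagenase 3 (TRINITY_DN116389_c4_g2), had 595, 248 and 269.8 FPKM in T3 tails, against 0.05, 0.71 and 0.27 FPKM in control tails (log2 fold change 8.02 ± 0.36, adjusted p = 3.54e-07). MMP9TH (TRINITY_DN105471_c5_g1), a gelatinase that was described in Xenopus as induced by thyroid hormone, had 853, 556 and 432 FPKM in T3 tails, against 9.2, 6.31 and 3.4 FPKM in control tails (log2 fold change 6.42 ± 0.35, adjusted p = 1.38e-06). T3 tail 1 was the highest library for both. Stromelysin-3 (TRINITY_DN95471_c12_g1), known in Xenopus as a direct T3 target that acts in cell death, had 70.7, 90.3 and 41 FPKM in T3 tails, against 1.42, 1.93 and 0.48 FPKM in control tails (log2 fold change 4.89 ± 0.35, adjusted p = 7.47e-06). MMP2, another gelatinase, averaged 164 ± 21.5 FPKM in T3 tails and 27 ± 2.72 FPKM in control tails (log2 fold change 2.56). MMP8, the neutrophil collagenase, had 221, 139 and 86.7 FPKM in T3 tails, against 16.7, 38.7 and 2.79 FPKM in control tails (log2 fold change 3.33 ± 0.69, adjusted p = 0.00612). MMP18-like, a collagenase first known from Xenopus, was the 1 member that fell, with 0.947 ± 0.513 FPKM in T3 tails and 3.96 ± 0.203 FPKM in control tails (log2 fold change -1.39 ± 0.27, adjusted p = 0.00499).

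**Figure D4:**
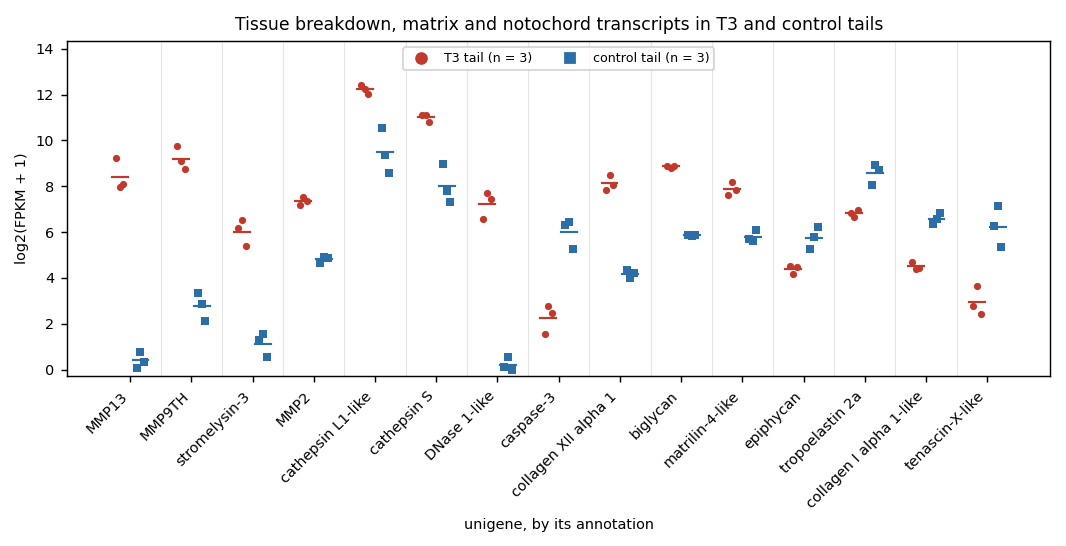
Log2(FPKM + 1) of 15 transcripts of tissue breakdown, matrix and cartilage in 3 T3 tails (red circles) and 3 control tails (blue squares), with the group mean as a line. MMP13 (248 to 595 against 0.05 to 0.71 FPKM) and DNase 1-like differ most, biglycan shows nearly no spread within a group, and caspase-3 and the 4 genes at the right are lower in every T3 tail.

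Lysosomes digest engulfed and internal material. Of 39 lysosomal proteases and hydrolases 18 rose, 16 of them stable, and 3 fell, all stable, with a median of 0.90. Cathepsin L1-like (TRINITY_DN113161_c3_g1), a cysteine protease, had 5492, 4870.1 and 4149.9 FPKM in T3 tails, against 1485, 656 and 377 FPKM in control tails (log2 fold change 2.75 ± 0.40, adjusted p = 0.000941). Cathepsin S (TRINITY_DN107723_c3_g1), a cysteine protease of antigen-presenting cells, had 2209, 2200.4 and 1812 FPKM in T3 tails, against 499, 217 and 156 FPKM in control tails (log2 fold change 3.00 ± 0.36, adjusted p = 0.000284). Cathepsin B averaged 2277 ± 121 FPKM in T3 tails and 693 ± 353 FPKM in control tails (log2 fold change 1.83 ± 0.31, adjusted p = 0.00214). Control tail 1 was the highest control for all 3, below every T3 tail. The list held 1.53 to 1.97% of summed FPKM in T3 tails and 0.216 to 0.730% in control tails (exact permutation p = 0.10). Macrophage and neutrophil markers, which are high in phagocytes, had the opposite direction, with 0.0445 to 0.0589% in T3 tails and 0.0735 to 0.139% in control tails (exact permutation p = 0.10). Most of that difference lay in 1 gene, lysozyme G-like 2: without it the markers held 0.0266 to 0.0464% in T3 tails and 0.0218 to 0.0558% in control tails, which overlapped (exact permutation p = 0.80). Their part in the lysosomal result was not tested.

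Among 25 members of apoptosis, the programmed death of cells, 7 rose, all 7 stable, and 3 fell, 2 of them stable, with a median of 0.22. Rises were 28% of the list and falls 12%, against 19.2% and 6.23% of all unigenes. The falls numbered 1 without T3 tail 1 or T3 tail 2. With median-ratio scaling or quantile normalization 7 rose and 8 fell, so the balance turned with the scaling. A deoxyribonuclease-1-like unigene (TRINITY_DN108470_c8_g4), of a family of DNA-cutting enzymes, had 95.3, 205 and 173 FPKM in T3 tails, against 0.08, 0.44 and 0 FPKM in control tails (log2 fold change 7.03 ± 0.32, adjusted p = 4.4e-07). In all, 4 of the 7 rises were deoxyribonucleases. Caspase-6, an executioner protease, averaged 114 ± 46.8 FPKM in T3 tails and 28.9 ± 13.9 FPKM in control tails (log2 fold change 1.97 ± 0.43, adjusted p = 0.00767). The Bcl-2-related ovarian killer protein, which opens mitochondria, averaged 22.8 ± 7 FPKM in T3 tails and 4.88 ± 1.79 FPKM in control tails (log2 fold change 2.02 ± 0.31, adjusted p = 0.0012). Caspase-3 (TRINITY_DN101361_c7_g2), the main executioner protease, had 1.89, 5.87 and 4.45 FPKM in T3 tails, against 77.6, 85.2 and 37.2 FPKM in control tails (log2 fold change -3.74 ± 0.39, adjusted p = 0.000113), while the 1 other tested unigene annotated as caspase-3 rose. Cytochrome c, which carries electrons and triggers caspases when released, averaged 75.4 ± 23.7 FPKM in T3 tails and 177 ± 50 FPKM in control tails (log2 fold change -1.23 ± 0.30, adjusted p = 0.0133). Its call was lost without T3 tail 1 (adjusted p = 0.0535) or T3 tail 2 (adjusted p = 0.071).

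Autophagy, the digestion of the cell's own parts, gave 5 rises among 25 members, a share near the 19.2% of all unigenes, 2 of them stable, with a median of 0.39. The number was 1 without T3 tail 1, 3 without T3 tail 3, 2 without control tail 2 and 8 without control tail 1. The largest was a GABA receptor-associated protein-like 1 unigene, a membrane tag of autophagosomes, with 15.3 ± 8.45 FPKM in T3 tails and 4.49 ± 1.38 FPKM in control tails (log2 fold change 1.49 ± 0.36, adjusted p = 0.0125). Among 40 proteasome subunits and muscle ubiquitin ligases 2 rose, 1 of them stable, and 4 fell, 2 of them stable, with a median of 0.45. Rises were 5% of the list and falls 10%, against 19.2% and 6.23% of all unigenes. This list hung on 1 library: without control tail 1 the rises numbered 25, and 1 without any other library, while the falls numbered 1 without T3 tail 1 and 2 without T3 tail 2 or T3 tail 3. Proteasome activator complex subunit 4 averaged 40.7 ± 8.13 FPKM in T3 tails and 11.5 ± 6.9 FPKM in control tails (log2 fold change 1.89 ± 0.40, adjusted p = 0.00672). A proteasome beta subunit averaged 51.1 ± 3.05 FPKM in T3 tails and 153 ± 26.2 FPKM in control tails (log2 fold change -1.55 ± 0.23, adjusted p = 0.00113), and subunits 1 and 2 of PA28, an activator that serves antigen processing, were among the falls.

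Interferon response genes fell more often than unigenes at large: 6 of 17 fell, against 6.23% of all unigenes, all 6 stable, with a median of -0.36. Interferon-induced very large GTPase 1-like (TRINITY_DN90681_c1_g1) had 7.58, 9.25 and 9.88 FPKM in T3 tails, against 89.8, 121 and 115 FPKM in control tails (log2 fold change -3.46 ± 0.24, adjusted p = 6.68e-06). Interferon regulatory factor 1 (IRF1), a transcription factor induced by interferon, had 15.1, 40.8 and 47.4 FPKM in T3 tails, against 217, 94.5 and 137 FPKM in control tails (log2 fold change -2.16 ± 0.43, adjusted p = 0.00508). Control tail 1 was the highest and T3 tail 1 the lowest library for IRF1, and the groups did not overlap. Regulatory factors 8 and 10 and a tetratricopeptide protein induced by interferon were among the falls. The 1 rise, of regulatory factor 6, which acts in skin, was not stable and was lost without any T3 tail or control tail 3. Inducible nitric oxide synthase (TRINITY_DN122575_c2_g1), which makes nitric oxide in activated immune cells, was outside the interferon list. It had 0.26, 0.58 and 0.37 FPKM in T3 tails, against 55, 49.4 and 20 FPKM in control tails (log2 fold change -4.80 ± 0.36, adjusted p = 9.69e-06) and was near 0 in T3 tails. Suppressor of cytokine signaling 1 (SOCS1), a feedback inhibitor of cytokine receptors, averaged 1.57 ± 1.06 FPKM in T3 tails and 8.1 ± 3.07 FPKM in control tails (log2 fold change -1.87 ± 0.37, adjusted p = 0.00495).

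Antigen presentation and complement showed falls of single members. Of 11 MHC and antigen presentation members 3 fell (27.3%, against 6.23% of all unigenes), 2 of them stable. The falls numbered 1 without T3 tail 1 or control tail 1. Antigen peptide transporter 1-like, of a transporter that supplies peptides for MHC class I, had 3.16, 8.38 and 8.75 FPKM in T3 tails, against 32.7, 15.3 and 30.3 FPKM in control tails (log2 fold change -1.83 ± 0.39, adjusted p = 0.00716). A tapasin-related protein and 1 MHC class I antigen made up the others. Of 19 complement members 2 fell, both stable. Complement component 4A averaged 15.1 ± 4.51 FPKM in T3 tails and 90.1 ± 27.2 FPKM in control tails (log2 fold change -2.49 ± 0.30, adjusted p = 0.000258). Complement C2, its partner in the classical pathway, averaged 7.82 ± 2.58 FPKM in T3 tails and 28.4 ± 13.6 FPKM in control tails (log2 fold change -1.69 ± 0.36, adjusted p = 0.00729). The 4 complement rises (21.1%, against 19.2% of all unigenes), 1 of them stable, were factor B, factor H, a C1q subcomponent and CD59. All 4 were lost without T3 tail 1. With median-ratio scaling 1 rose and 5 fell. The number was 1 without T3 tail 2, T3 tail 3 or control tail 3 and 2 without control tail 2. Lysozyme G-like 2, an enzyme that cuts bacterial walls, was the 1 called member of 12 macrophage and neutrophil markers, with 70.4, 97.9 and 207 FPKM in T3 tails, against 729.6, 279 and 596 FPKM in control tails (log2 fold change -2.13 ± 0.43, adjusted p = 0.00558). Without T3 tail 3 or control tail 1 the falls of this list numbered 2, and without control tail 1 there were also 3 rises. An Ig mu heavy chain disease protein-like unigene, of the antibody family, averaged 1.29 ± 0.699 FPKM in T3 tails and 9.22 ± 5.18 FPKM in control tails (log2 fold change -2.08 ± 0.39, adjusted p = 0.00374). Of 11 T, NK and B cell markers 1 rose (9.09%, against 19.2% of all unigenes) and 1 fell (9.09%, against 6.23%), both stable. The rise was lost without T3 tail 1, T3 tail 2, control tail 2 or control tail 3, and 3 rose without control tail 1. With median-ratio scaling 1 rose and 4 fell. The summed share of T, NK and B cell markers was 0.0103 ± 0.000991% in T3 tails and 0.00938 ± 0.00408% in control tails (exact permutation p = 0.70).

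**Figure D5:**
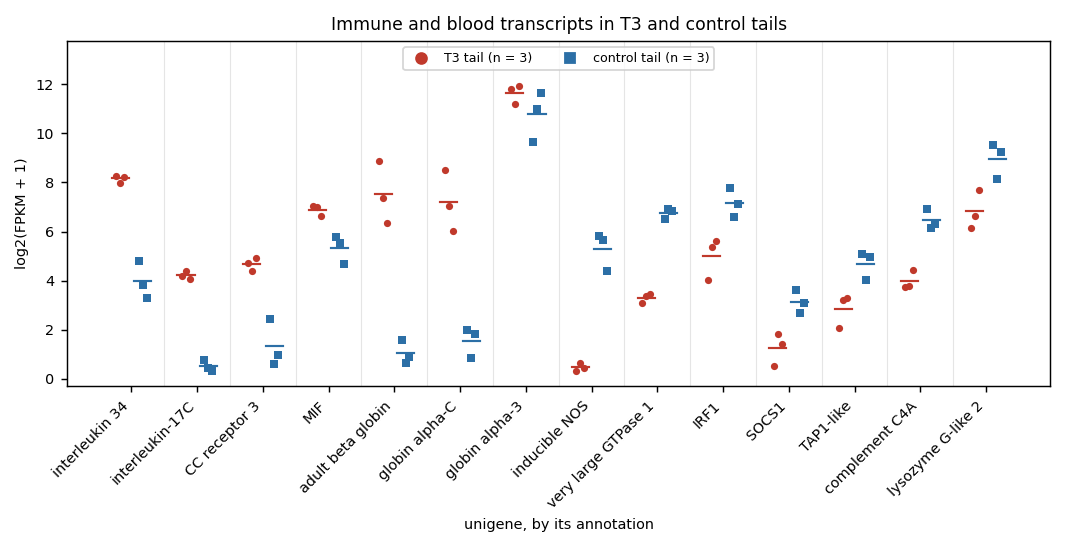
Log2(FPKM + 1) of 14 immune and blood transcripts in 3 T3 tails (red circles) and 3 control tails (blue squares), with the group mean as a line. From the left, interleukins, CC receptor 3, MIF, adult beta globin and globin alpha-C are higher in T3 tails, globin alpha-3 overlaps, and inducible NOS, interferon response, antigen transport, complement and lysozyme genes are lower.

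Cytokines, chemokines and their receptors changed in both directions. Of 64 members 21 rose, 17 of them stable, and 7 fell, 4 of them stable, with a median of 0.37. Rises were 32.8% of the list and falls 10.9%, against 19.2% and 6.23% of all unigenes. With median-ratio scaling 19 rose and 15 fell, and with quantile normalization 17 and 15. The rises numbered 13 without T3 tail 2, and the falls 1 without T3 tail 1, 2 without control tail 1 and 3 without T3 tail 2, T3 tail 3 or control tail 2. Interleukin 34 (TRINITY_DN98262_c1_g2), a growth factor for macrophages, had 310.5, 251 and 299 FPKM in T3 tails, against 26.8, 13.2 and 8.8 FPKM in control tails (log2 fold change 4.19 ± 0.35, adjusted p = 2.04e-05). Interleukin-17C (TRINITY_DN112710_c11_g1), an epithelial cytokine, had 17.3, 19.9 and 15.7 FPKM in T3 tails, against 0.68, 0.36 and 0.26 FPKM in control tails (log2 fold change 3.71 ± 0.25, adjusted p = 4.53e-06). Both were separated by a wide gap between the groups. The chemokine receptor CCR3, known from eosinophils, averaged 25.1 ± 4.71 FPKM in T3 tails and 1.95 ± 2.12 FPKM in control tails (log2 fold change 3.36 ± 0.42, adjusted p = 0.000357). Macrophage migration inhibitory factor (MIF), a cytokine of many cell types, averaged 118 ± 17.7 FPKM in T3 tails and 41.1 ± 14.8 FPKM in control tails (log2 fold change 1.56 ± 0.31, adjusted p = 0.0048). Interleukin-1 beta-like, the interleukin-1 receptor type 1 and its accessory protein also rose, and CC chemokine 21, CXC chemokine 10-like and interleukin-8-like were among the falls.

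Blood, vessel and nerve transcripts had rises. Erythrocyte markers held 0.647%, 0.397% and 0.608% in T3 tails, against 0.137%, 0.270% and 0.400% in control tails (exact permutation p = 0.20), so that T3 tail 2 lay within the control range. The most abundant globin, hemoglobin alpha-3 (TRINITY_DN120685_c4_g1), had 3563, 2348 and 3934 FPKM in T3 tails, against 804, 2055 and 3245 FPKM in control tails with overlapping groups, and was not called (log2 fold change 0.87 ± 0.42, adjusted p = 0.155). Of 9 erythrocyte members 4 rose, 3 of them stable, and 1 fell. Hemoglobin alpha-C (TRINITY_DN111298_c11_g1) had 362, 132 and 64.1 FPKM in T3 tails, against 2.97, 0.78 and 2.5 FPKM in control tails (log2 fold change 5.65 ± 0.54, adjusted p = 5.43e-05). Adult beta globin (TRINITY_DN104989_c4_g1), which was outside this list and its share, had 471, 166 and 81.5 FPKM in T3 tails, against 2.03, 0.56 and 0.85 FPKM in control tails (log2 fold change 6.50 ± 0.53, adjusted p = 1.77e-05). T3 tail 1 held the most and T3 tail 3 the least of both globins among T3 tails, and no control tail reached any T3 tail. A globin annotated as a larval alpha subunit averaged 14.9 ± 4.66 FPKM in T3 tails and 0.06 ± 0.104 FPKM in control tails (log2 fold change 3.87 ± 0.28, adjusted p = 7.47e-06). One annotated as a heart muscle alpha type averaged 16.4 ± 7.53 FPKM in T3 tails and 64.9 ± 13.7 FPKM in control tails (log2 fold change -2.02 ± 0.36, adjusted p = 0.00315), so that the first rose and the second fell.

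Of 15 endothelial members 7 rose (46.7%, against 19.2% of all unigenes), 5 of them stable, with a median of 0.70. The rises numbered 3 without T3 tail 2 and 4 without T3 tail 1, control tail 2 or control tail 3. Stabilin-2, a scavenger receptor for hyaluronan, had 40.2, 41.6 and 36.3 FPKM in T3 tails, against 8.32, 6.74 and 4.16 FPKM in control tails (log2 fold change 2.49 ± 0.28, adjusted p = 0.000164). Vascular endothelial growth factor receptor 2, the main receptor of vessel growth, averaged 8.11 ± 1.6 FPKM in T3 tails and 2.8 ± 0.582 FPKM in control tails (log2 fold change 1.26 ± 0.26, adjusted p = 0.00619). Of 21 nerve and glia members 8 rose (38.1%, against 19.2%), 5 of them stable, with a median of 0.56. The rises numbered 3 without T3 tail 2 and 5 without T3 tail 1, T3 tail 3 or control tail 2. Peripheral myelin protein 2, a fatty acid carrier of Schwann cells, had 861, 1149.8 and 643 FPKM in T3 tails, against 353, 132 and 100.3 FPKM in control tails (log2 fold change 2.35 ± 0.42, adjusted p = 0.00278). The shares of both lists were higher in every T3 tail: nerve and glia held 0.116 to 0.198% in T3 tails and 0.0343 to 0.0709% in control tails, and endothelium 0.0173 to 0.0217% and 0.00736 to 0.0128% (exact permutation p = 0.10 each). In T3 tails most of the nerve and glia share was peripheral myelin protein 2, and the share without it was not tested.

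Genes of the thyroid hormone response changed in 7 of 8 members, 6 with a rise and 1 with a fall, all stable, and the median of the list was 2.49. The rises were the receptor beta, the TH/bZIP factor, KLF9, deiodinases 2 and 3, and gene 17, and the fall was deiodinase 1. The unigene annotated as thyroid hormone down-regulated protein, or gene 17 (TRINITY_DN95703_c0_g1), named in Xenopus for its decline under thyroid hormone, had 727, 1143 and 881 FPKM in T3 tails, against 129, 129 and 22.5 FPKM in control tails (log2 fold change 3.62 ± 0.55, adjusted p = 0.00124). Its direction is opposite to its name, and of 6 other tested unigenes with this annotation 2 rose and 2 fell. Thyroid hormone receptor alpha, the receptor of larval stages, averaged 1.37 ± 0.147 FPKM in T3 tails and 0.723 ± 0.281 FPKM in control tails and was not called (log2 fold change 0.47 ± 0.25, adjusted p = 0.188). Of 20 nuclear receptors 8 rose, 5 of them stable, and 1 fell, the clock receptor of subfamily 1 group D, which was not stable and was lost without any T3 tail, control tail 1 or control tail 2. The rises numbered 4 without T3 tail 1 and 5 without T3 tail 2 or control tail 3. Peroxisome proliferator-activated receptor gamma, a regulator of fat cells and macrophages, had 16.3, 20.5 and 19.8 FPKM in T3 tails, against 4.99, 3.14 and 1.34 FPKM in control tails (log2 fold change 2.35 ± 0.34, adjusted p = 0.000852). A unigene annotated as retinoic acid receptor alpha averaged 6.59 ± 1.31 FPKM in T3 tails and 1.67 ± 0.511 FPKM in control tails (log2 fold change 1.51 ± 0.26, adjusted p = 0.00261). NR4A3, an early response receptor, averaged 6.48 ± 2.33 FPKM in T3 tails and 0.997 ± 0.635 FPKM in control tails (log2 fold change 1.91 ± 0.34, adjusted p = 0.00269).

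Of 6 early response factors 4 rose, all stable, with a median of 1.33. Fos-related antigen 2 averaged 15.1 ± 6.29 FPKM in T3 tails and 1.59 ± 0.841 FPKM in control tails (log2 fold change 2.61 ± 0.37, adjusted p = 0.000781). Its partner AP-1 (Jun) averaged 14.5 ± 2.39 FPKM in T3 tails and 5.1 ± 1.62 FPKM in control tails (log2 fold change 1.37 ± 0.28, adjusted p = 0.00575). The stress factor ATF-3 averaged 8.5 ± 1.4 FPKM in T3 tails and 2.82 ± 0.178 FPKM in control tails (log2 fold change 1.30 ± 0.24, adjusted p = 0.00357). The remaining one was RcC/EBP-2, a bullfrog factor of the C/EBP family. RcC/EBP-2 was the most abundant of them, with 404, 401 and 278 FPKM in T3 tails, against 119, 116 and 72.9 FPKM in control tails (log2 fold change 1.82 ± 0.27, adjusted p = 0.0011), and its groups did not overlap.

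Homeobox factors, which assign position and cell identity, gave 25 rises among 69 members (36.2%, against 19.2% of all unigenes). Of these rises 21 were stable, and the list median was 0.57. The rises numbered 15 without T3 tail 2. The 1 fall, of Hox-C4, was lost without T3 tail 1, T3 tail 3 or control tail 2, and with equal library sums. Without T3 tail 3 the 1 fall was of another member. Hox-C12 (TRINITY_DN119368_c4_g1), of the posterior end of the HoxC cluster, had 58.2, 38.9 and 45.4 FPKM in T3 tails, against 8.32, 6.81 and 5.78 FPKM in control tails (log2 fold change 2.60 ± 0.26, adjusted p = 7.73e-05). Hox-C11a averaged 20.1 ± 4.11 FPKM in T3 tails and 5.97 ± 1.06 FPKM in control tails (log2 fold change 1.59 ± 0.26, adjusted p = 0.00172). Hox-C10, C13a-like, D13 and A11 rose too, all of the posterior part of their clusters. The calls of Hox-C10 and A11 were lost without T3 tail 2 or control tail 2. That of Hox-C10 was also lost without T3 tail 1, and that of A11 without T3 tail 3. The short stature homeobox protein, a factor of limb skeleton growth, had 6.83, 16.8 and 8.96 FPKM in T3 tails, against 0.72, 0.02 and 0.24 FPKM in control tails (log2 fold change 3.10 ± 0.34, adjusted p = 0.000156). Pituitary homeobox 1, which marks the hindlimb, averaged 7.5 ± 2.82 FPKM in T3 tails and 0.487 ± 0.422 FPKM in control tails (log2 fold change 2.51 ± 0.32, adjusted p = 0.000415). T3 tail 2 was the highest library for both, and every T3 tail was above every control tail.

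Of 44 secreted signals and receptors of the Wnt, BMP, FGF and hedgehog families 17 rose (38.6%, against 19.2% of all unigenes). Of these rises 14 were stable, and the list median was 0.64. Dickkopf-related protein 2, which modulates Wnt receptors, had 29.2, 45.3 and 51.8 FPKM in T3 tails, against 6.61, 6.98 and 4.2 FPKM in control tails (log2 fold change 2.62 ± 0.30, adjusted p = 0.000185). Follistatin-related protein 1, a secreted glycoprotein that binds BMP signals, had 167, 171 and 153 FPKM in T3 tails, against 40.2, 37.8 and 37.4 FPKM in control tails (log2 fold change 2.06 ± 0.22, adjusted p = 0.000118). The beta A chain of inhibin, which also forms activin A, averaged 9.01 ± 1.53 FPKM in T3 tails and 0.48 ± 0.02 FPKM in control tails (log2 fold change 2.75 ± 0.24, adjusted p = 3.1e-05). FGF23-like, of the hormone-like FGFs, averaged 9.93 ± 5.8 FPKM in T3 tails and 0.0967 ± 0.0379 FPKM in control tails (log2 fold change 3.13 ± 0.42, adjusted p = 0.00052), and Wnt-5a, Wnt-11, BMP3 and BMP6 rose as well. In the insulin-like growth factor axis 4 of 12 members rose, all stable, and 2 rose without T3 tail 1 or T3 tail 2. Insulin-like growth factor-binding protein 4 averaged 5.95 ± 1.88 FPKM in T3 tails and 0.647 ± 0.125 FPKM in control tails (log2 fold change 2.04 ± 0.28, adjusted p = 0.000635). Insulin receptor substrate 4, an adaptor below the receptor, averaged 15.5 ± 3.45 FPKM in T3 tails and 4.19 ± 1.32 FPKM in control tails (log2 fold change 1.68 ± 0.29, adjusted p = 0.00248).

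Of 78 chromatin modifiers 14 rose, which is 17.9% and near the background of 19.2%, and 5 of them were stable, while 3 fell, 2 of them stable. The rises numbered 3 without T3 tail 1 or T3 tail 2, 4 without control tail 2 or control tail 3 and 8 without T3 tail 3, and the falls 1 without T3 tail 1, T3 tail 2, control tail 1 or control tail 2. The methyltransferase EZH2 of Polycomb repression averaged 17.4 ± 2.61 FPKM in T3 tails and 4.46 ± 2.05 FPKM in control tails (log2 fold change 1.82 ± 0.32, adjusted p = 0.00257). Histone deacetylase 1, a corepressor enzyme, averaged 40.9 ± 6.32 FPKM in T3 tails and 13.1 ± 5.27 FPKM in control tails (log2 fold change 1.63 ± 0.30, adjusted p = 0.00364). A DNA methyltransferase 3A-like unigene averaged 3.47 ± 0.909 FPKM in T3 tails and 1.01 ± 0.257 FPKM in control tails (log2 fold change 1.14 ± 0.26, adjusted p = 0.0105). SMYD1, described with muscle, was the largest of the falls. Cell cycle and replication genes had a median of 0.75. They gave 21 rises among 66 members (31.8%, against 19.2% of all unigenes), 16 of them stable. The number was 7 without T3 tail 2, 11 without control tail 2, 12 without control tail 3 and 32 without control tail 1. The mitotic kinase PLK1 had 6.9, 11.9 and 8.61 FPKM in T3 tails, against 3.94, 2.83 and 1.21 FPKM in control tails (log2 fold change 1.52 ± 0.33, adjusted p = 0.00841). The replication clamp PCNA had 52.3, 117 and 104 FPKM in T3 tails, against 61.2, 40.3 and 34.5 FPKM in control tails, which overlapped and did not pass (log2 fold change 0.95 ± 0.34, adjusted p = 0.0631), and passed without T3 tail 1 (adjusted p = 0.0252) or control tail 1 (adjusted p = 0.029).

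Genes of energy metabolism had lower medians than unigenes at large. Of 19 glycolysis members 8 fell, 5 of them stable, 1 rose and the median was -0.71, and the falls numbered 5 without T3 tail 2. Triosephosphate isomerase, an enzyme of the middle of the pathway, had 712, 826 and 887 FPKM in T3 tails, against 2181, 1605 and 3811 FPKM in control tails (log2 fold change -1.56 ± 0.29, adjusted p = 0.00386). Hexokinase-2-like, the first enzyme and the 1 riser, averaged 9.81 ± 0.568 FPKM in T3 tails and 3.89 ± 1.06 FPKM in control tails (log2 fold change 1.16 ± 0.25, adjusted p = 0.00802), and without control tail 1 there were 3 rises. Pyruvate kinase, phosphoglycerate kinase 1 and enolase 3, the muscle form, fell as well. Of 17 TCA cycle members 5 fell, 2 of them stable, and the median was -0.44, with 2 falls without any T3 tail or control tail 2. Cytoplasmic malate dehydrogenase averaged 246 ± 45.4 FPKM in T3 tails and 614 ± 205 FPKM in control tails (log2 fold change -1.28 ± 0.27, adjusted p = 0.00669). Of 49 nuclear-encoded respiratory chain subunits 17 fell (34.7%, against 6.23% of all unigenes), 5 of them stable, with a median of -0.64. The falls numbered 3 without T3 tail 2, 5 without T3 tail 1 and 10 without T3 tail 3, and 39 with median-ratio scaling. Cytochrome c oxidase subunit VIa polypeptide 2, the heart and muscle form, had 8.36, 4.92 and 10.4 FPKM in T3 tails, against 20.6, 43.4 and 52.4 FPKM in control tails (log2 fold change -2.11 ± 0.37, adjusted p = 0.00279). The mitochondrial carrier of adenine nucleotides SLC25A4, abundant in muscle, had 341, 349 and 435 FPKM in T3 tails, against 1405, 1261 and 1907 FPKM in control tails (log2 fold change -2.01 ± 0.23, adjusted p = 0.0002). Control tail 3 was the highest library for triosephosphate isomerase, the oxidase subunit and the carrier, and also held the most muscle transcripts (27.6%). Control tail 2 held more muscle transcripts than control tail 1 (20.01% against 14.4%). It had more of the oxidase subunit than control tail 1, but less triosephosphate isomerase and less of the carrier. The part of muscle transcripts in these results was not tested. Mitochondrial-encoded respiratory chain transcripts held 5.35 ± 0.668% in T3 tails and 5.05 ± 0.532% in control tails (exact permutation p = 0.50).

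Of 93 cytosolic ribosomal proteins 3 fell, 1 of them stable, and the median was -0.35. This list depended on the scaling and on single libraries: 73 fell with median-ratio scaling and 24 without control tail 3, 1 was left without T3 tail 3, and the 3 calls were lost without T3 tail 1, T3 tail 2 or control tail 2. The ribosomal protein L36a was the most abundant member described, with 3305, 2938 and 3228 FPKM in T3 tails, against 4616, 4636 and 3835 FPKM in control tails, and was not called as deposited (log2 fold change -0.46 ± 0.18, adjusted p = 0.0833), although its groups did not overlap. The summed share of ribosomal proteins was 12.5 ± 0.399% in T3 tails and 13.8 ± 2.39% in control tails (exact permutation p = 0.40).

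Enzymes of amino acid metabolism changed in both directions, with 10 rises (7 stable) and 10 falls (8 stable) among 34 members and a median of 0.02. Glutamine synthetase (TRINITY_DN103670_c6_g2), which fixes ammonia, had 1357, 1181 and 956 FPKM in T3 tails, against 79.3, 67.1 and 32.5 FPKM in control tails (log2 fold change 4.34 ± 0.32, adjusted p = 9.12e-06). The arginases, which split arginine into ornithine and urea, moved in opposite directions. The hepatic type had 106, 86.2 and 55.6 FPKM in T3 tails, against 11, 12.7 and 3.11 FPKM in control tails (log2 fold change 3.21 ± 0.44, adjusted p = 0.000618), and 2 of 2 others of this annotation rose. The non-hepatic type 1 had 7.36, 7.94 and 16.5 FPKM in T3 tails, against 79.5, 66.4 and 148 FPKM in control tails (log2 fold change -3.09 ± 0.37, adjusted p = 0.00027). Ornithine decarboxylase 1, which leads ornithine into polyamines, averaged 241 ± 74.8 FPKM in T3 tails and 29 ± 13.1 FPKM in control tails (log2 fold change 3.07 ± 0.38, adjusted p = 0.000307). Ornithine aminotransferase, which leads ornithine to glutamate, averaged 75.8 ± 26.3 FPKM in T3 tails and 451 ± 226 FPKM in control tails (log2 fold change -2.50 ± 0.36, adjusted p = 0.000941). Argininosuccinate synthase of arginine formation averaged 6.76 ± 2 FPKM in T3 tails and 37.3 ± 8.28 FPKM in control tails (log2 fold change -2.31 ± 0.28, adjusted p = 0.000302).

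Solute carriers, the transporters for small molecules, gave 46 rises among 126 members (36.5%, against 19.2% of all unigenes), 39 of them stable. They gave 9 falls (7.14%, against 6.23%), 7 of them stable, and the median was 0.55. The sodium-coupled monocarboxylate transporter 1-like unigene (TRINITY_DN116904_c6_g1), which takes up lactate and short fatty acids, had 52.5, 31.9 and 32.6 FPKM in T3 tails, against 0, 0 and 0.04 FPKM in control tails (log2 fold change 5.27 ± 0.27, adjusted p = 8.07e-07). SLC6A14, gene 2, a broad amino acid importer, averaged 28.5 ± 10.7 FPKM in T3 tails and 0.0967 ± 0.095 FPKM in control tails (log2 fold change 4.68 ± 0.31, adjusted p = 4.61e-06). Both were near 0 in every control tail. SLC7A8, the light chain of an L-type exchanger of large amino acids, averaged 512 ± 135 FPKM in T3 tails and 83.1 ± 31.5 FPKM in control tails (log2 fold change 2.65 ± 0.33, adjusted p = 0.00036). Monocarboxylate transporter 9, a carnitine carrier in mammals, averaged 49.7 ± 21.5 FPKM in T3 tails and 2.27 ± 0.635 FPKM in control tails (log2 fold change 3.88 ± 0.34, adjusted p = 2.71e-05).

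Among antioxidant and iron proteins 10 of 51 members rose, 7 of them stable, and 6 fell, 4 of them stable, with a median of 0.23 and 3 falls without T3 tail 1 or control tail 2. The share that rose, 19.6%, was near the 19.2% of all unigenes, and with median-ratio scaling 7 rose and 18 fell, against 9 and 12 with quantile normalization. Thioredoxin reductase 1 of the cytoplasm (TRINITY_DN97320_c3_g1) had 12.3, 12.3 and 21.7 FPKM in T3 tails, against 0.04, 0.09 and 0 FPKM in control tails (log2 fold change 3.93 ± 0.28, adjusted p = 6.68e-06). Its substrate thioredoxin, which reduces oxidised proteins, had 135, 175 and 226 FPKM in T3 tails, against 21.1, 47.2 and 12.5 FPKM in control tails (log2 fold change 2.85 ± 0.41, adjusted p = 0.000913). Heme oxygenase 1, which breaks down heme, averaged 91.3 ± 3.91 FPKM in T3 tails and 17.4 ± 11.1 FPKM in control tails (log2 fold change 2.50 ± 0.37, adjusted p = 0.00105). The groups were separate for all 3. Of 25 fatty acid oxidation members 4 rose, all stable, and 1 fell, with a median of -0.04, and 2 rose without T3 tail 2 or control tail 3. With median-ratio scaling 4 rose and 11 fell, and with quantile normalization 4 rose and 8 fell, so the balance turned with the scaling. The peroxisomal 3-ketoacyl-CoA thiolase averaged 14 ± 6.28 FPKM in T3 tails and 1.84 ± 0.891 FPKM in control tails (log2 fold change 2.35 ± 0.36, adjusted p = 0.00128). Of 14 prostaglandin and leukotriene enzymes 8 rose, 5 of them stable, with a median of 0.86. The number was 1 without T3 tail 2, 2 without control tail 3, 3 without T3 tail 1 or control tail 2 and 5 without T3 tail 3. The largest rise was of 15-hydroxyprostaglandin dehydrogenase, which inactivates prostaglandins, with 19.9, 29 and 16.3 FPKM in T3 tails, against 4.11, 4.84 and 1.32 FPKM in control tails (log2 fold change 2.43 ± 0.37, adjusted p = 0.00121). Alcohol dehydrogenase 4 (TRINITY_DN97578_c6_g1), which oxidises retinol and other alcohols, was among the largest falls of the tail, with 0.45, 0.68 and 0.83 FPKM in T3 tails, against 78.8, 34.3 and 36 FPKM in control tails (log2 fold change -4.84 ± 0.33, adjusted p = 5.38e-06).

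The difference between the T3 effect of the tail and that of the liver was tested over 23101 unigenes, and 4391 (19.0%) differed, 3532 with a higher effect in the tail and 859 with a lower one. With median-ratio scaling the split was 1186 and 1741, so the direction of this count depends on the scaling. Without T3 tail 2 the total was 2582, with 1938 higher in the tail, and the number higher in the tail was 2207 without control tail 3, 2303 without control liver 1 and 2351 without control liver 3. The skin and matrix genes above were among those with the largest differences. The effect of the tail minus that of the liver was 8.81 for keratin, type II cytoskeletal 5, 7.93 for MMP13, 6.70 for cornulin-like and -7.68 for keratin 14, type I. These genes were low in liver, with group means from 0.05 FPKM (cornulin-like, T3 livers) to 2.15 FPKM (keratin 14, control livers). Their differences thus mostly restate the tail change. For IRF1 the difference was 0.02 (adjusted p = 0.987), which did not pass. Adult beta globin rose more in the liver, with a difference of -4.25 (adjusted p = 0.0022). Of the keratins 19 of 25 had an effect that differed between the organs, as had 15 of 27 metalloproteinases, 18 of 33 thin filament members and 25 of 69 homeobox factors, in comparison with 19.0% of all unigenes tested. Unigenes below the filter in liver were included, and for those the difference mostly restates the tail change. The 19.0% also covers unigenes tested in the liver alone, whereas list members were all tested in the tail.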

How the data were processed

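RNA of 6 tail and 6 liver libraries of Rana omeimontis tadpoles was extracted with TRIzol and sequenced as paired ends on an Illumina HiSeq platform. The authors assembled the reads with Trinity, annotated unigenes against the NR protein database, mapped with Bowtie and quantified with RSEM, for which the sources used here give no versions, and deposited FPKM (fragments scaled to transcript length and mapped fragments) rounded to hundredths. FPKM hold no counts, so read depth is unknown and no counting interval is given. No reads were mapped again.

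A unigene was tested in the tail where at least 3 of the 6 tail libraries had 1 FPKM or more. Values were taken as log2(FPKM + 1), a scale that understates the fold of low genes, and fitted with limma 3.58.1 (R 4.3.3) with a mean-variance trend on the tail libraries alone. P-values were adjusted by Benjamini-Hochberg over all tested unigenes, and a call is an adjusted p below 0.05. The difference between tail and liver effects was fitted as an interaction over all 12 libraries, which were taken as independent. Tail and liver libraries of the same number may come from the same tadpoles, and such a pairing was not modelled. The 53 gene lists were matched to annotation wording, with 1 unigene per distinct description. The members and lists were chosen with earlier results of these data known. Named genes were the 10 largest called rises and falls with a group mean of at least 10 FPKM. Per list, the 4 most abundant members and the 3 largest called rises and falls were taken. Every tested member was taken for thyroid hormone response, nuclear receptors, early response factors, myogenic factors and notochord factors. The text leaves out some genes that this rule gives. Any further gene was named, and the macrophage share without lysozyme G-like 2 was added, after the values were seen. Marker shares of summed FPKM were compared with a two-sided exact permutation test, which for 3 against 3 cannot go below 0.10. Alternatives were pseudocounts of 0.1 and 5, other filters, 3 scalings, variance settings, a single-gene test, a replicate block, and each library left out. The fit was tested on simulated data. Some results are not reported here.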

Additional observations from a re-analysis of the deposited data

Results flagged for a closer look

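The effect of T3 on the tail was set against that on the liver with a test of the difference itself, which 4391 of 23101 unigenes passed. Among the unigenes that the report names, 9 were called in both organs with opposite directions. How many of the 14251 unigenes tested in both organs had such calls was not counted. Liver calls were made on the values as deposited alone. Ammonium transporter Rh type B-A differed by -3.05 (tail minus liver, log2 scale, limma, adjusted p = 0.00129). It fell in the tail and rose in the liver, where it averaged 88.4 FPKM after T3 and 32.8 FPKM in controls. Cathepsin B differed by 3.29 (adjusted p = 0.00067), with 199 FPKM in T3 livers and 521 FPKM in control livers against its rise in the tail. Cytochrome c differed by -2.12 (adjusted p = 0.00325), and it averaged 59.8 FPKM in T3 livers and 31.9 FPKM in control livers, a rise close to the threshold (limma, adjusted p = 0.0481). The tail call of cytochrome c was lost without T3 tail 1 or T3 tail 2. Macrophage migration inhibitory factor differed by 2.87 (adjusted p = 0.00129), with 164 FPKM in T3 livers and 418 FPKM in control livers. Monocarboxylate transporter 9 differed by 5.52 (adjusted p = 9.7e-06), with 2.95 FPKM in T3 livers and 11.6 FPKM in control livers. Type III deiodinase, which inactivates thyroid hormone, differed by 4.58 (adjusted p = 0.000765), with 3.76 FPKM in T3 livers and 23.6 FPKM in control livers. Complement factor H differed by 2.42 (adjusted p = 0.00197), with 6.81 FPKM in T3 livers and 20.9 FPKM in control livers, and its tail call was lost with any library left out but control tail 2. Collagen alpha-1(XXVII) chain B-like differed by 3.00 (adjusted p = 0.000107), with a liver log2 fold change of -1.54. Keratin 5 protein 2 differed by -3.25 (adjusted p = 1.2e-05), with a liver log2 fold change of 1.08.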

How the results depend on the processing

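Of the tail calls (4688 as deposited), 2750 were left with no filter on low values, 1776 with a single-gene test without shared variance, and 2133 at an adjusted p below 0.01 with an absolute log2 fold change of at least 1. Leaving out 1 library gave 2561 to 5804 calls, with the lowest count without T3 tail 2. The other settings kept the count within 1.5 times, but scaling moved the split: 75.5% of calls were rises as deposited, 85.4% with equal library sums, 50.1% with median-ratio scaling and 50.6% with quantile normalization, with 1148 falls as deposited and 2586 with median-ratio scaling. The tail and liver effects differed in 4391 unigenes as deposited and 2927 with median-ratio scaling, and in 2582 to 5797 with 1 library left out, again lowest without T3 tail 2. The cause was not tested.

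The named unigenes held 208 calls, of which 174 were kept in every setting applied to them and 34 were lost in at least 1. The settings applied were the scalings, the pseudocounts, the replicate block and each library left out. Named calls were not followed under the other filters, the variance settings, the single-gene test or the stricter cutoff. Median-ratio scaling and quantile normalization each kept 201, equal library sums 198, a pseudocount of 0.1 204, a pseudocount of 5 205 and the replicate block 206. With 1 library left out 182 to 200 were kept, the fewest without T3 tail 1. Among those lost were muscle creatine kinase with quantile normalization (limma, adjusted p = 0.156), MEF2C with median-ratio scaling (adjusted p = 0.183) and matrilin-3 with equal library sums (adjusted p = 0.0963). No named call changed sign under these settings.

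Same-numbered tails of both groups deviated together with correlations of 0.05, 0.03 and 0.07 across unigenes, and tails of different numbers with -0.10 to 0.06. With 3 libraries per group these values cannot decide whether the numbers pair the samples. The replicate block gave 4796 tail calls and 4108 unigenes that differed between tail and liver. Read depth is unknown, so differences among genes near 1 FPKM are the least certain.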

Other observations

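Chaperones, which fold or protect proteins, changed about as often as all unigenes in T3 tails. Of 53 members 10 rose (18.9%, against 19.2% of all unigenes), 6 of them under all scalings, and 4 fell (7.55%, against 6.23%), all 4 under all scalings. With median-ratio scaling 7 rose and 9 fell. The rises numbered 20 without control tail 1 and 6 without T3 tail 2, T3 tail 3, control tail 2 or control tail 3, and the falls numbered 7 without control tail 3. A heat shock 70 kDa protein-like unigene, of the HSP70 family, had 42.4, 31.7 and 38.1 FPKM in T3 tails, against 3.48, 5.94 and 4.45 FPKM in control tails (log2 fold change 2.78 ± 0.26, adjusted p = 4.97e-05). Heat shock protein beta-1, a small heat shock protein, had 39.2, 54.5 and 33.6 FPKM in T3 tails, against 228, 175 and 202 FPKM in control tails (log2 fold change -2.24 ± 0.26, adjusted p = 0.000198). The HSP70 family gene was higher and the small heat shock protein lower in every T3 tail than in any control tail. The other falls were HSP 90-alpha 1, heat shock protein beta-2 and the HSP90 gene described with muscle.

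Further antioxidant proteins were called beside those of the thioredoxin system. Extracellular superoxide dismutase, which removes superoxide outside cells, averaged 1.82 ± 0.554 FPKM in T3 tails and 9.69 ± 1.99 FPKM in control tails (log2 fold change -1.93 ± 0.27, adjusted p = 0.000711). Glutathione S-transferase theta 1 was among the rises, and glutathione S-transferase mu 2 and glutathione peroxidase 4 b were among the falls.

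The heavy chain SLC3A2, which pairs with SLC7A8 in an exchanger of large amino acids, had 699, 509.8 and 511 FPKM in T3 tails, against 201, 159 and 56.6 FPKM in control tails (log2 fold change 2.21 ± 0.41, adjusted p = 0.00344), so that both chains rose and the groups did not overlap.

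Some annotations were shared by several unigenes whose calls differed. Of 73 other tested unigenes annotated as interferon-induced very large GTPase 1-like, 43 fell and 3 rose. The most abundant uromodulin unigene had 14.8, 79.4 and 53.6 FPKM in T3 tails, against 171, 179 and 61 FPKM in control tails, with overlapping groups and no call (log2 fold change -1.60 ± 0.57, adjusted p = 0.0627), while 7 of 16 others fell and 1 rose. Whether such unigenes are separate genes, alleles or fragments of 1 transcript was not tested.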
